A study of Mus musculus with 15 samples.

Results

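Retinal microglia that lacked Apoe were compared with wild-type microglia after microbeads had been injected into the eye. The comparison holds 7 of the 15 libraries of the series, all those labelled as coming from microbead-injected retinas. Of these, 4 came from Apoe-/- and 3 from wild-type retinas, chosen by their labels and by no measured value. All mice were C57BL/6 and 12 weeks old. The sham-injected retinas, 4 wild-type and 4 Apoe-/-, gave the same genotype contrast without microbeads. Beads lodged in the drainage angle obstruct the aqueous humour, so eye pressure goes up as it does in glaucoma. The labels used here state neither the time after injection nor how the Apoe allele was made. The sort took 100 to 600 cells per retina from a gate for resident microglia (CD11b+ Fcrls+ Ly6c-). Libraries of each genotype bore their own plate letter, so genotype and plate cannot be told apart.

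Apoe encodes apolipoprotein E, the main lipid carrier that glia secrete in the central nervous system. Microglia in degenerating tissue lower genes of their resting, homeostatic state (P2ry12, Tmem119, Cx3cr1) and raise a neurodegenerative set that includes Apoe itself, Lgals3, Spp1, Gpnmb, Itgax and Clec7a. Genes of the neurodegenerative set serve phagocytosis, lysosomal breakdown and the handling of lipid. The comparison addresses whether microglia without Apoe take on that set under raised eye pressure.

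After microbeads, Lgals3 and Spp1 were lower in Apoe-/- than in wild-type microglia, as was Apoe. These 3 genes, 0.0460% of the 6521 tested, passed an adjusted p under 0.05 by edgeR's quasi-likelihood test with Benjamini-Hochberg adjustment. In the other direction edgeR called 0 genes (0%) higher in Apoe-/-. DESeq2 on the same table called 18 higher and 8 lower, and limma voom called 0 higher and 1 lower. The 8 include Apoe, H2-Ab1, Pld3, Cd74 and Lyz2, while DESeq2 gave Lgals3 and Spp1 no adjusted p. The 18 are predicted models, a kind that includes the satellite models described below, and the vomeronasal receptor Vmn1r236. How many of the 18 are satellite models was not counted. Below, a gene is called where edgeR's adjusted p is under 0.05. At an unadjusted p under 0.05, edgeR had 277 genes higher (4.25%) and 192 lower (2.94%). Values per library are given below as CPM, edgeR's counts per 1e6 reads of the TMM-scaled library size, and fold changes are log2 of Apoe-/- over wild type.

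Apoe was read in every library first, as a check of the labels. It is a protein-coding gene (ENSMUSG00000002985) on the minus strand of chromosome 7, at 19696109 to 19699188 in mm10. The wild-type microbead libraries 1 to 3 held 3894, 15125 and 7325 reads of it. The Apoe-/- microbead libraries 1 to 4 held 5, 3, 3 and 3 reads, so the groups stood far apart. Summed and set against library size, Apoe reads of the Apoe-/- group came to 0.0647% of those of the wild type (exact 95% interval 0.0353 to 0.108, counting error only). The log2 fold change was -10.45 (SE 0.59, edgeR adjusted p = 1.14e-09). Of 13 tested genes within 2 Mb of Apoe on either side, Clptm1 was lower and Sympk higher in every Apoe-/- microbead library than in any wild-type one. Over all genes tested, 3.70% were lower and 3.14% higher in this way. The median of the 13 was -0.12. At edgeR's unadjusted p under 0.05 there were 3 of them, and 469 of the 6521 genes tested.

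The 7 libraries held 503034 to 707901 reads in genes, and 3 reads, the limit that a count of 0 allows, were worth 3.00 to 8.19 CPM. Much of each library lay in 12 predicted gene models built of major satellite repeat: 53.5, 40.8 and 41.2% of gene reads in the wild-type libraries, and 63.3, 70.7, 67.1 and 55.4% in the Apoe-/- ones. The groups did not overlap in this share (45.2% ± 7.22 SD, n = 3, against 64.1% ± 6.58 SD, n = 4), with a two-sided exact permutation p of 0.0571 (0.114 adjusted over 4 library measures). The smallest p this design allows is 0.0286. TMM-scaled library size was lower in Apoe-/- (mean 501510 against 813470, exact p = 0.0571, adjusted 0.114). A pair of libraries stood apart from their groups. Wild-type microbead library 2 had the highest values of most neurodegenerative genes, and Apoe-/- microbead library 2 was nearest to the wild-type libraries. List medians that move by more than about 1.5 times without 1 library are given with that value. Their part in the results was otherwise not tested.

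**Figure D1:**
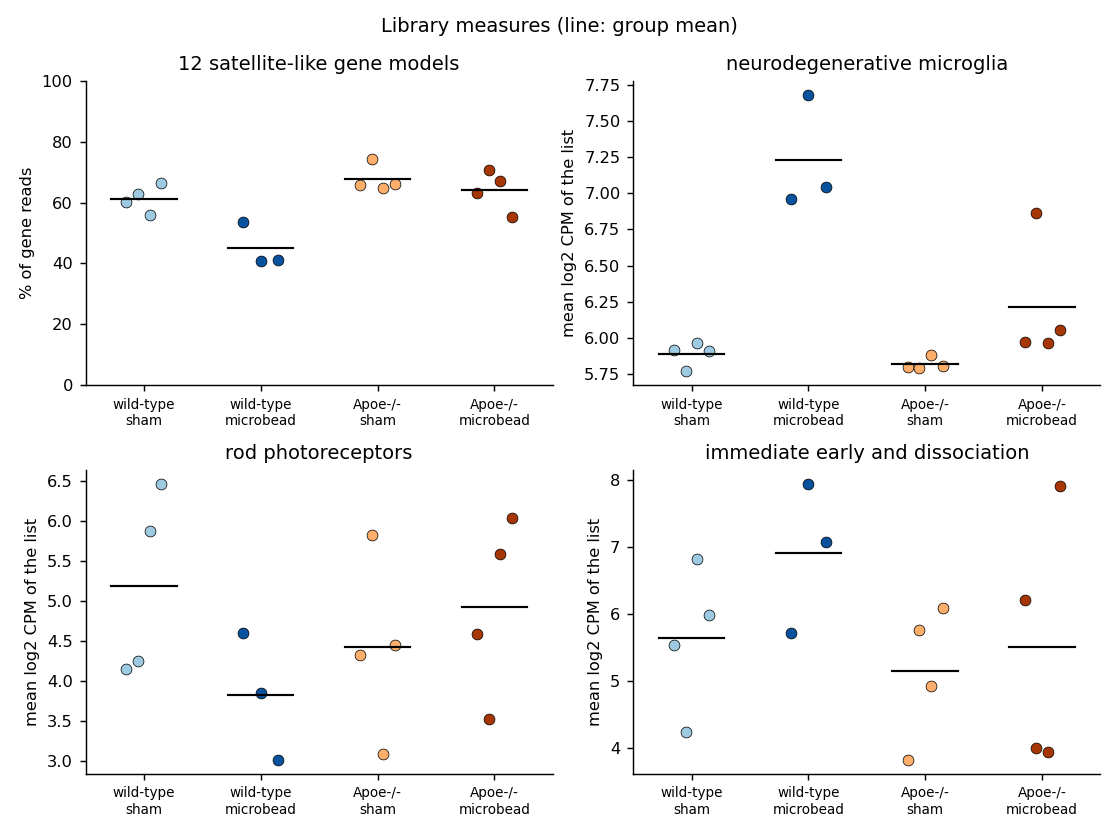
Each point is 1 library in 4 groups, and lines are group means. The panels show the percentage of gene reads in 12 satellite gene models, and the mean log2 CPM of the neurodegenerative, rod photoreceptor and immediate early gene lists. In the neurodegenerative panel 3 Apoe-/- microbead libraries sit between 5.97 and 6.05, near both sham groups, and library 2 sits at 6.86. That level covers all tested members, including those that pass the filter only through their wild-type microbead level.

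Lgals3 encodes galectin-3, a carbohydrate-binding protein that activated phagocytes release. Its level was 49.2, 269 and 65.4 CPM in the wild-type microbead libraries 1 to 3, and 12.4, 19.1, 7.78 and 0 CPM in the Apoe-/- libraries 1 to 4. All Apoe-/- libraries lay below all wild-type ones, with 0 to 7 reads each. The log2 fold change was -3.83 (SE 0.66, edgeR adjusted p = 0.0406). Leaving out wild-type microbead library 2 moved it to -2.64, with an adjusted p of 1.

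Spp1 encodes osteopontin, a secreted phosphoprotein that binds integrins and marks phagocytic microglia. Its level was 159, 249 and 52.0 CPM in the wild-type microbead libraries, and 0, 13.7, 5.83 and 0 CPM in the Apoe-/- libraries. The groups again did not overlap, and 2 of the 4 Apoe-/- libraries had no read. The log2 fold change was -5.15 (SE 0.87, edgeR adjusted p = 0.0406). Without wild-type microbead library 2 it was -4.595, with an adjusted p of 0.481.

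Both calls lay close to the threshold. With satellite share as a covariate the edgeR adjusted p was 0.898 for Lgals3 and 0.206 for Spp1, and with rod level it was 0.329 and 0.158. Lgals3 passed it no longer without Apoe-/- microbead library 1 (adjusted p = 0.154), 3 (0.222) or 4 (0.116), wild-type sham library 1 (0.0549) or Apoe-/- sham library 4 (0.056), in the same edgeR test. Spp1 was lost without the same libraries, with adjusted p of 0.154, 0.222, 0.147, 0.0549 and 0.056. It was also lost without wild-type microbead library 1 (0.0715) or wild-type sham library 4 (0.0584). Both had too few reads in the 8 sham libraries to pass a filter set on those alone. Without Apoe-/- microbead library 2, edgeR called 7 genes lower: Apoe, Lgals3, Spp1, Gpnmb, Pld3, Lyz2 and the pseudogene Tpt1-ps3.

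**Figure D2:**
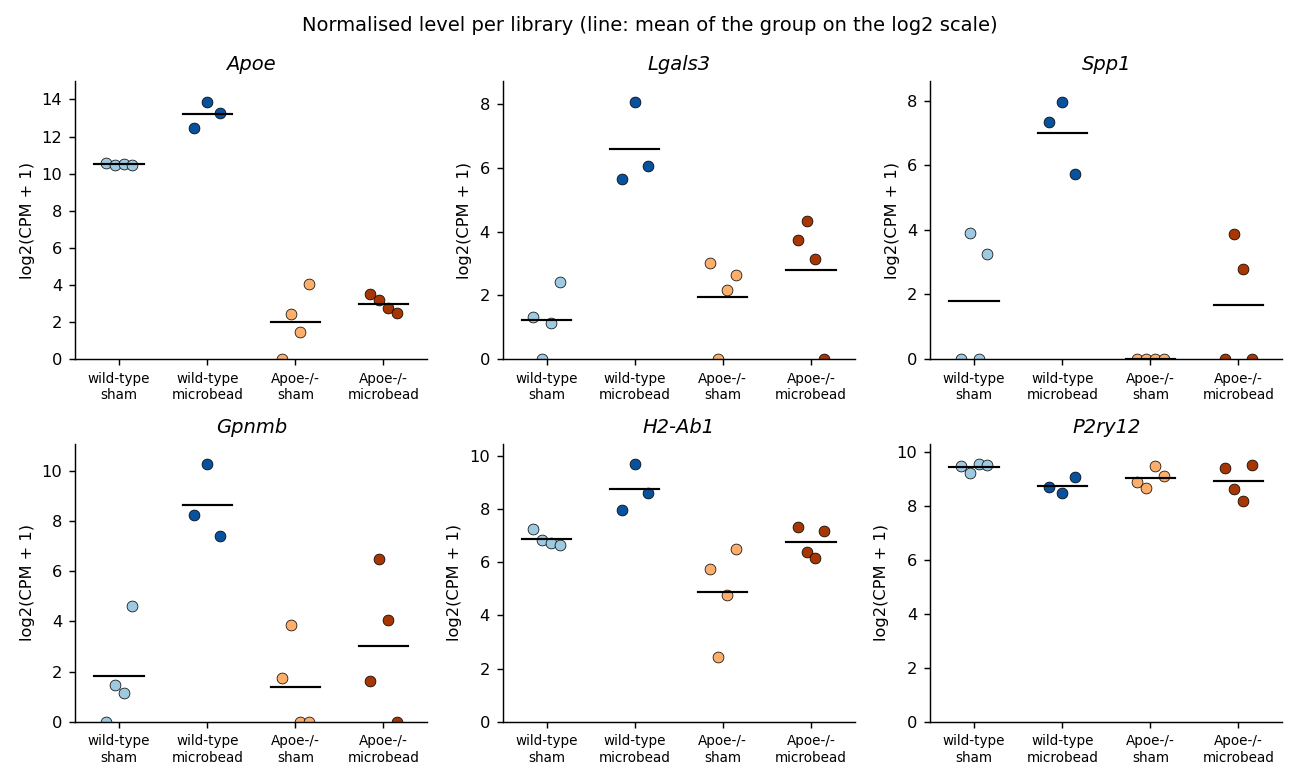
Each point is 1 library, on a log2(CPM + 1) axis that starts at 0, for 6 genes in the 4 groups, and lines are group means on that scale. Lgals3, Spp1 and Gpnmb have their 3 highest values in the wild-type microbead libraries, H2-Ab1 is lower in Apoe-/- after both injections, and P2ry12 overlaps between genotypes.

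Gpnmb encodes a transmembrane glycoprotein of lysosome-rich phagocytes, and it showed the same arrangement as the called genes without passing the test. Its level was 303, 1218 and 167 CPM in wild-type microbead libraries, and 2.07, 87.4, 15.6 and 0 CPM in Apoe-/- ones. The log2 fold change was -4.57 (SE 0.97), and the edgeR adjusted p was 0.219. Fam20c, a kinase of the secretory pathway, was 31.9, 34.99 and 30.7 CPM against 6.21, 10.9, 3.89 and 9.33, again without overlap (log2 fold change -2.09, SE 0.46, edgeR adjusted p = 0.219).

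The sequences before the start sites of Lgals3, Spp1 and Gpnmb are shown because these 3 genes had the lowest log2 fold changes of the neurodegenerative list. They are from the RefSeq table on GRCm38.p6, 5′ to 3′ on the gene's strand, up to 250 bases before the start. Capitals mark any match to an E-box (CACGTG, the site of TFEB-type factors), an AP-1 site (TGANTCA) or a PU.1 site (GAGGAAG), searched on both strands. The Lgals3 window (chr14:47373610-47373812, plus strand) leaves out 47 bases that GENCODE places in an exon, and lies inside the annotated gene, which begins at 47367751. The Spp1 window is chr5:104434861-104435110 and the Gpnmb window chr6:49036268-49036517, both on the plus strand.
Lgals3: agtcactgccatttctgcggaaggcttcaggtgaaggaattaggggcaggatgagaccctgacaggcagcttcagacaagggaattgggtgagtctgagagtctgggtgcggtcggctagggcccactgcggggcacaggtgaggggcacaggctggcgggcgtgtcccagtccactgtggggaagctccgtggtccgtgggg
Spp1: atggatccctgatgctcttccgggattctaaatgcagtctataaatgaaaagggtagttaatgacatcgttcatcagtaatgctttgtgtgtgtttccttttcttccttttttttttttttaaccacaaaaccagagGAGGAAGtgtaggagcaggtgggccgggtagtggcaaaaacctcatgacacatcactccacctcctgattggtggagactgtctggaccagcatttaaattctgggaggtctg
Gpnmb: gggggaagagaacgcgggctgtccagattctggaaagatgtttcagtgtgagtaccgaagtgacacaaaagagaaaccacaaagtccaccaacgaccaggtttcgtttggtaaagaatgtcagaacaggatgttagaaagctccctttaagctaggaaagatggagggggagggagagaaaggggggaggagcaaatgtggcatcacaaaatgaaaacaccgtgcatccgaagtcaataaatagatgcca
The Spp1 window held 1 PU.1 match, which begins 113 bases before the start, and the other 2 windows held none of the 3 motifs. Of 32807 windows of 250 bases in that table, 10.6% held the PU.1 letters, 6.02% the E-box and 6.75% the AP-1 letters. A match is a description of letters only.

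Of the 45 genes on the neurodegenerative list, 38 had enough reads to be tested. Of these 38, 33 had a log2 fold change below 0, against 49.0% of all genes tested, and 5 were above 0, as were 51.0% of all. Their median was -0.73, beside 0.01 over all genes. In 14 members every Apoe-/- library lay below every wild-type library, where 3.70% of all genes did so, and 2 were higher without overlap (3.14% of all). edgeR called 2 of the 38 lower (0.0460% of all genes) and 0 higher. At an unadjusted p under 0.05, 19 were lower and 0 higher (2.94% and 4.25% of all genes). Members that pass the filter only through their level in wild-type microbead libraries had to be lower in Apoe-/-. With the filter set on the 8 sham libraries alone, 25 members were left, of which 21 were below 0, with a median of -0.40. Under that filter edgeR called only Apoe. The counts without overlap and at an unadjusted p were not repeated under it, so they include members that had to be lower. Leaving out library 2 of the wild-type microbead group gave a median of -0.44, and leaving out library 2 of the Apoe-/- group gave -0.99.

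The mean log2 CPM of the list gave 1 value per library. It was 6.96, 7.68 and 7.05 in the wild-type microbead libraries and 5.97, 6.86, 5.97 and 6.05 in the Apoe-/- ones. In sham retinas it ran from 5.77 to 5.97 in wild-type and from 5.79 to 5.88 in Apoe-/- libraries. Apoe-/- microbead libraries 1, 3 and 4 thus lay at or just above the top of the sham range. Apoe-/- library 2 lay just under the wild-type microbead range. This level covers all 38 tested members, including those that pass the filter only through their wild-type microbead level. A level over the 25 members left by the sham filter was not computed.

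**Figure D3:**
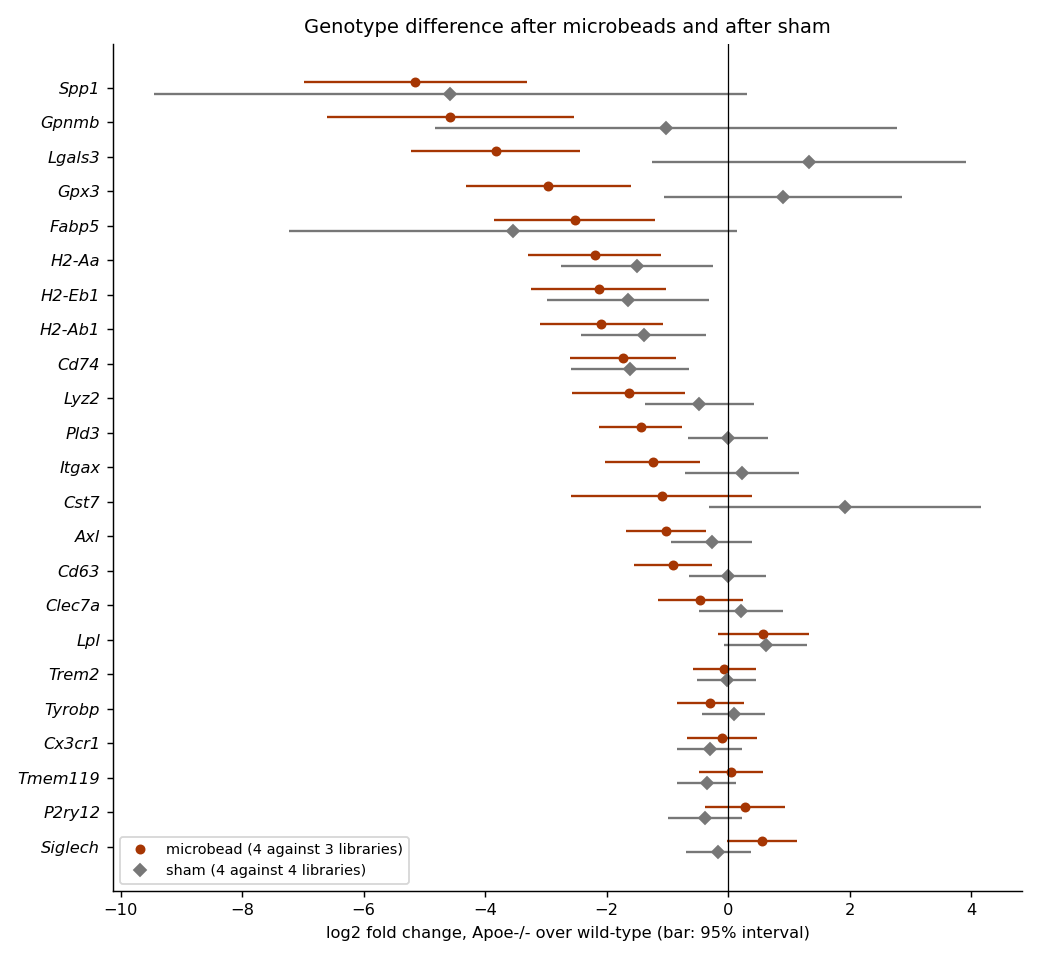
Log2 fold change of Apoe-/- over wild type (horizontal axis) with its 95% interval for 23 genes, after microbeads (circles, 4 against 3 libraries) and after sham (diamonds, 4 against 4). Lgals3, Gpx3 and Pld3 lie below 0 after microbeads with sham values at or above 0. Lgals3 and Gpx3 passed the filter only through their wild-type microbead level. The class II genes lie below 0 in both contrasts, and Trem2 to P2ry12 lie near 0 after microbeads.

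Among secreted and surface members of the list, none beyond Lgals3 and Spp1 passed the test, and the values below are given as not called. Itgax, the integrin CD11c, was 40.6, 63.0 and 45.4 CPM in wild-type and 14.5, 32.8, 23.3 and 15.6 CPM in Apoe-/- microbead libraries, without overlap (log2 fold change -1.24, edgeR adjusted p = 0.478). Axl, a receptor tyrosine kinase for the uptake of dying cells, had a log2 fold change of -1.02 and also did not overlap (151, 220 and 145 CPM against 60.1, 115, 87.5 and 79.3). Gpx3, a secreted glutathione peroxidase, was 53.6, 29.0 and 18.7 CPM in wild type and 6.21, 5.46, 5.83 and 0 CPM in Apoe-/- libraries. Its log2 fold change was -2.96 (SE 0.65, edgeR adjusted p = 0.219).

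Enzymes and cargo proteins of lysosomes and lipid were not called by edgeR either, while DESeq2 called Pld3 (adjusted p = 0.00509) and Lyz2 (0.0203) lower. Pld3, a lysosomal exonuclease, was 226, 338 and 212 CPM in wild type and 68.4, 169, 70.0 and 79.3 in Apoe-/- (log2 fold change -1.44, SE 0.33, edgeR adjusted p = 0.233). Lyz2, lysozyme of phagocytes, was 933, 2332 and 874 CPM against 232, 937, 393 and 222, so that Apoe-/- library 2 reached the wild-type values (log2 fold change -1.64, and -1.03 without wild-type library 2). Fabp5, a fatty acid carrier inside cells, was 31.9, 87.0 and 28 CPM against 4.14, 21.9, 7.78 and 3.11 (log2 fold change -2.52, adjusted p = 0.322). Cd63, a tetraspanin of late endosomes, had a log2 fold change of -0.90 and overlapped between groups.

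Some well-known members did not follow this arrangement. Cst7, a cysteine protease inhibitor, was 86.9, 44.0 and 44.0 CPM in wild-type and 10.4, 98.3, 7.78 and 3.11 CPM in Apoe-/- libraries. Its highest single value was thus Apoe-/- library 2. Its log2 fold change was -1.09 (95% interval -2.58 to 0.39), and -3.05 without that library. Clec7a, the beta-glucan receptor dectin-1, had a log2 fold change of -0.46 (95% interval -1.16 to 0.24), with 59.4, 89.0 and 84.0 CPM against 49.7, 95.6, 27.2 and 57.6. On the other side of 0 lay lipoprotein lipase Lpl (0.58, interval -0.16 to 1.33) and the chemokine Ccl6 (0.57, interval -0.05 to 1.19), both without overlap between groups.

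Trem2 is the lipid-sensing receptor that is thought to act upstream of the neurodegenerative state, and it signals through the adaptor Tyrobp. Trem2 was 587, 505 and 510 CPM in wild type and 410, 538, 517 and 579 in Apoe-/-, with overlapping groups and a log2 fold change of -0.06 (95% interval -0.58 to 0.46). Tyrobp had a log2 fold change of -0.30 (interval -0.85 to 0.26). Downstream, the kinase Syk was at -0.53 and the phospholipase Plcg2 at -0.80, neither called. Of 18 tested members of the Trem2 signalling list, 16 were below 0 and 2 above, with a median of -0.22. edgeR called 0, with 1 lower at an unadjusted p under 0.05 (2.94% of all genes).

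The genes that carry lipid out of the cell or store it were looked at next, since Apoe is the acceptor of that lipid. Of 25 genes on the list for lipid efflux, LXR and lipid droplets, 16 were tested, with 10 below and 6 above 0 and a median of -0.18. The median was above 0 without Apoe-/- library 1 (0.046) or 3 (0.059), was -0.51 without library 2 and -0.108 without library 4, -0.395 and -0.071 without wild-type library 1 and 2, and was 0.004 over the 10 members that pass a filter on sham libraries alone. Abca1, the transporter that loads lipid onto apolipoproteins, was 49.2, 111 and 70.7 CPM in wild type and 58.0, 139, 50.5 and 56.0 in Apoe-/- (log2 fold change -0.06, 95% interval -0.83 to 0.72). Abcg1, a second sterol exporter, was at -0.17 (interval -1.2 to 0.86). Soat1, which makes cholesteryl esters for storage, was 79.7, 157 and 103 CPM against 55.9, 62.8, 71.9 and 43.6, without overlap (log2 fold change -0.96, edgeR adjusted p = 0.482). Apoc4, an apolipoprotein gene next to Apoe, was at 1.19 and overlapped. edgeR called 0 of the 16, with 1 higher and 4 lower at an unadjusted p under 0.05 (4.25% and 2.94% of all genes).

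Receptors and synthesis showed no called gene either. Lrp1, a large receptor that takes up apolipoprotein E, was at 0.07 (95% interval -0.54 to 0.69). Of 9 tested lipoprotein and scavenger receptors, 7 were above 0 (median 0.33, and 0.097 without wild-type library 1 and 0.153 or 0.205 without Apoe-/- library 2 or 3), and edgeR called 0, with 0 at an unadjusted p under 0.05. Of 26 cholesterol synthesis genes, 11 were tested, 6 above and 5 below 0 (median 0.04, and -0.097 to 0.19 with 1 microbead library left out), and edgeR again had 0 called and 0 at an unadjusted p under 0.05.

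Genes of antigen presentation by MHC class II were lower in Apoe-/- libraries after both injections, without passing edgeR's adjusted test in either. DESeq2 called H2-Ab1 (adjusted p = 0.00509) and Cd74 (0.019) lower after microbeads and neither after sham. H2-Ab1, the beta chain of the class II molecule I-A, was 249, 815 and 383 CPM in wild-type and 160, 81.9, 70.0 and 142 CPM in Apoe-/- microbead libraries. All Apoe-/- libraries lay below all wild-type ones (log2 fold change -2.08, SE 0.48, edgeR adjusted p = 0.246). In sham libraries H2-Ab1 was 150, 112, 104 and 98.9 CPM in wild type and 52.3, 4.44, 26.1 and 88.7 in Apoe-/- (log2 fold change -1.39, adjusted p = 0.555). The alpha chain H2-Aa was at -2.20 after microbeads and -1.50 after sham. H2-Eb1, the beta chain of I-E and a gene chosen after its values were seen, was at -2.13 and -1.65. Cd74, the invariant chain that guides class II molecules to endosomes, was at -1.73 and -1.61, with -1.10 after microbeads without wild-type library 2. With satellite share as a covariate H2-Ab1 was at -0.48, H2-Aa at -0.99, H2-Eb1 at -1.46 and Cd74 at -0.51 after microbeads. The unadjusted p of the difference between the 2 contrasts was 0.326, 0.408, 0.588 and 0.861 for these genes, in that order.

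Of the 20 tested antigen presentation genes, class I genes included, 18 were below 0 after microbeads, with a median of -0.54 (-0.36 without wild-type library 2). Of these, 5 were lower without overlap (3.70% of all genes were). edgeR called 0 of them, with 6 lower and 0 higher at an unadjusted p under 0.05 (2.94% and 4.25% of all genes). The sham contrast had 17 of the 20 below 0, with a median of -0.21 (all genes: -0.01).

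Lysosomal genes were below 0 in 34 of 37 tested members, with a median of -0.36, and 7 were lower without overlap (3.70% of all genes). Atp6v1a, a subunit of the proton pump that acidifies lysosomes, was 59.4, 86.0 and 56.0 CPM in wild type and 20.7, 27.3, 19.4 and 28 in Apoe-/-. These groups lay well apart, yet the gene was not called (log2 fold change -1.49, SE 0.37, edgeR adjusted p = 0.272). edgeR called 0 of the 37, with 9 lower (2.94% of all genes) and 0 higher at an unadjusted p under 0.05. Leaving out library 2 of the wild-type group gave -0.33, and leaving out that of the Apoe-/- group -0.51.

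Oxidant and antioxidant enzymes were below 0 in 16 of 18 tested members (median -0.53, and -0.35 without wild-type library 2). In all, 5 were lower and 0 higher, both without overlap and at an unadjusted p under 0.05, where 3.70% and 2.94% of all genes were lower. Gpx3, 1 of them, had 1 or 2 reads in each sham library and passed the filter through its wild-type microbead level. With a filter on sham libraries alone, 12 of 14 were below 0, with a median of -0.35. Besides Gpx3, they include Prdx1, a peroxiredoxin, at 82.6, 172 and 105 CPM in wild type and 41.4, 57.4, 66.1 and 66.9 in Apoe-/- (log2 fold change -1.05, edgeR adjusted p = 0.374). Genes of glycolysis and hypoxia were below 0 in 16 of 17 (median -0.52, and -0.22 without wild-type microbead library 2). Of these 17, 2 were lower without overlap (3.70% of all genes) and 0 higher. At edgeR's unadjusted p under 0.05, 5 were lower (2.94% of all genes) and 0 higher. Of the glycolytic enzymes, Tpi1 was at -1.31 and Aldoa at -0.90, and both overlapped. edgeR called 0 in either list.

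**Figure D4:**
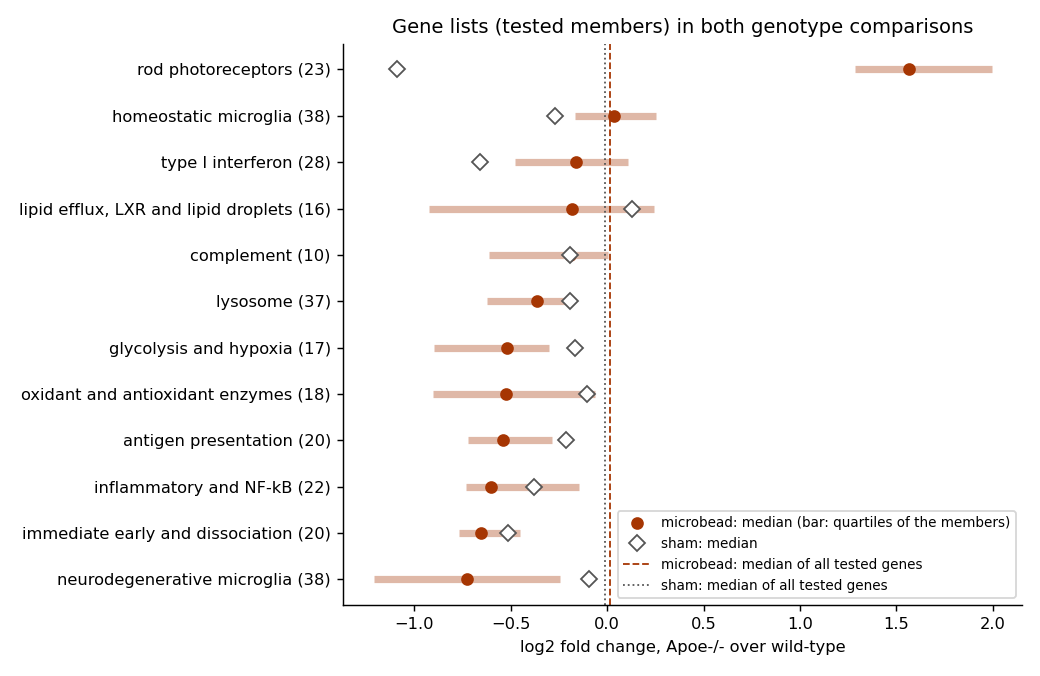
Median log2 fold change of Apoe-/- over wild type for 12 gene lists, with tested members in parentheses. Circles with quartile bars are the microbead contrast, diamonds the sham contrast, and vertical lines the medians of all tested genes. The neurodegenerative list lies at -0.73 after microbeads and -0.09 after sham, and the rod list at 1.57 and -1.09.

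After microbeads, homeostatic genes were spread evenly around 0. Of 38 tested members of 39, 20 were above and 18 below 0, with a median of 0.04 (-0.096 to 0.11 with 1 microbead library left out). The sham contrast had 6 above and 32 below 0, with a median of -0.27 (all genes: -0.01). In it, 3 were lower and 0 higher at edgeR's unadjusted p under 0.05 (2.99% and 5.69% of all genes). The values that follow are of the microbead contrast. P2ry12 was 416, 353 and 532 CPM in wild type and 671, 399, 292 and 739 in Apoe-/-, with overlapping groups (log2 fold change 0.28, 95% interval -0.38 to 0.94). Tmem119, a surface marker of microglia, was at 0.05 (interval -0.47 to 0.58). Cx3cr1, the fractalkine receptor, was at -0.09 (-0.67 to 0.48). Sall1, a transcription factor of microglial identity, was at 0.15 (-0.47 to 0.77).

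The sort marker Fcrls was 171, 246 and 331 CPM in wild-type and 74.6, 331, 239 and 244 CPM in Apoe-/- libraries, a log2 fold change of -0.17 (95% interval -0.92 to 0.58). Cells that lost this marker would not have been collected. Siglech, a sialic acid-binding lectin, was at 0.56 and higher in all Apoe-/- than in all wild-type libraries. On the other side, the endocytic adaptor Bin1 (-0.89) was lower without overlap. It was not called, with an edgeR adjusted p of 0.568, and in the sham contrast it was at -0.73. edgeR called 0 of the 38 homeostatic genes. At an unadjusted p under 0.05, 2 were lower and 0 higher (2.94% and 4.25% of all genes).

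TGF-beta holds microglia in the resting state. Of 14 tested genes of its pathway, 8 were above and 6 below 0 (median 0.04, and -0.082 to 0.18 with 1 microbead library left out). The ligand Tgfb1 was at 0.00 (95% interval -0.83 to 0.84) and the receptor Tgfbr2 at -0.39 (-0.91 to 0.13). edgeR called 0, with 1 higher and 0 lower at an unadjusted p under 0.05 (4.25% and 2.94% of all genes).

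Inflammatory and NF-kB genes were below 0 in 19 of 22 tested members, with a median of -0.60 after microbeads and -0.38 after sham. The microbead median was -0.38 without Apoe-/- library 1 and -0.99 without library 4. Cxcl16, a membrane-bound chemokine, was 76.8, 126 and 107 CPM in wild-type and 31.1, 79.2, 36.9 and 51.3 CPM in Apoe-/- libraries (log2 fold change -1.08, edgeR adjusted p = 0.475). Tnf, the tumour necrosis factor gene, was 8.69, 147 and 109 CPM against 6.21, 8.19, 9.72 and 60.7, with overlapping groups. Immediate early genes, which cell isolation can induce, lay to the same side. Of 20 tested, 18 were below 0, with a median of -0.65. Without wild-type library 2 the direction turned, with 8 below and 12 above 0 and a median of 0.035. The median was -2.06, -0.31 and -0.28 without Apoe-/- library 4, 2 and 3, and -1.003 without wild-type library 1. The summed level of that list was 1859.7 to 10394 CPM in wild-type and 406 to 10742 CPM in Apoe-/- libraries. Their mean log2 level was 5.71, 7.95 and 7.07 in wild type and 6.22, 4.00, 3.94 and 7.91 in Apoe-/-. Ier2, an immediate early gene, was at -1.98 after microbeads and -2.25 after sham. The part of isolation in the inflammatory values was not tested. edgeR called 0 in either list. At an unadjusted p under 0.05, 3 and 1 were lower (2.94% of all genes) and 0 higher (4.25%).

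Of 28 type I interferon genes, 20 were below 0 after microbeads (median -0.16), and the sham median was -0.66. Without wild-type microbead library 2, 14 were below and 14 above 0 (median -0.001), and the median was -0.33 without Apoe-/- library 2, -0.061 without library 4 and -0.30 without wild-type library 3. Ifi27l2a, an interferon-induced gene, was at -1.17, and Slfn5, a Schlafen family gene, at -1.21, neither called. Complement genes were mixed, with 7 of 10 below 0 and a median of -0.19 (-0.38 without wild-type library 1 and -0.094 without Apoe-/- library 1). C1qa, which makes a chain of C1q, was 1439.7, 1479.6 and 1794 CPM against 1131, 1745.5, 1528 and 1449.9 (log2 fold change -0.10, 95% interval -0.63 to 0.42). C4b was 85.5, 146 and 319 CPM in wild type and 8.29, 175, 196 and 3.11 in Apoe-/-, split within the Apoe-/- group. The anaphylatoxin receptor C5ar1 was at -0.89 after microbeads and -1.30 after sham. edgeR called 0 in both lists. At an unadjusted p under 0.05, 1 interferon gene was lower (2.94% of all genes), with 0 others in either direction.

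Housekeeping groups were also read. Of 77 tested cytosolic ribosomal protein genes, 52 were below 0 (median -0.12), and of 43 nuclear genes of oxidative phosphorylation, 29 were (median -0.17). The ribosomal median was above 0 without Apoe-/- library 1 (0.064) or 4 (0.046), was -0.43 without library 2, -0.19 without library 3 and -0.23 without wild-type library 1, and was -0.016 without wild-type library 2. That of oxidative phosphorylation was -0.06 without Apoe-/- library 1 and -0.32 without library 2. Rps2, a small-subunit protein, was at -1.45, and Ndufv3, a subunit of complex I, at -1.14, both without overlap and neither called. edgeR called 0 in these lists. At an unadjusted p under 0.05, 2 and 1 were lower (2.94% of all genes) and 0 higher (4.25%).

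edgeR called no gene higher in Apoe-/- microglia. The 5 with the smallest p in that direction were Gm47102, Ermp1, Gm48365, Olfr66 and Paip1. Gm47102, a predicted model, was 384, 135 and 205 CPM in wild type and 980, 645, 1106 and 560.0 in Apoe-/- (log2 fold change 1.77, edgeR adjusted p = 0.219, DESeq2 adjusted p = 0.00134). With satellite share as a covariate Gm47102 was at 0.45. Ermp1, a peptidase of the endoplasmic reticulum, was 7.24, 12.0 and 10.7 CPM against 43.5, 38.2, 25.3 and 23.3 (log2 fold change 1.65, adjusted p = 0.246). Paip1, which binds the poly(A)-binding protein in translation, was 14.5, 5.00 and 10.7 CPM against 29.0, 38.2, 29.2 and 21.8 (1.56, adjusted p = 0.328). For Ermp1 and Paip1 the Apoe-/- microbead values lay in the range of the sham libraries (19.7 to 49.6 and 19.2 to 44.4 CPM). Gm48365 (3.65) and the olfactory receptor Olfr66 (3.86) had adjusted p of 0.322 and 0.328.

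The kinds of gene on each side differed in make-up. Of 205 genes that were higher in every Apoe-/- microbead library than in any wild-type one, 11 were satellite models, 10 olfactory, vomeronasal or taste receptors and 29 other predicted models. The other protein-coding genes among them were 154 (75.1%, where they are 91.8% of all genes tested). Of 241 genes lower without overlap, 237 were such protein-coding genes (98.3%). The higher satellite share of Apoe-/- libraries moves with these counts, and its part was not tested. Without satellite, receptor and predicted models in the table, edgeR called 4 genes lower, with Gpnmb added, and 0 higher.

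**Figure D5:**
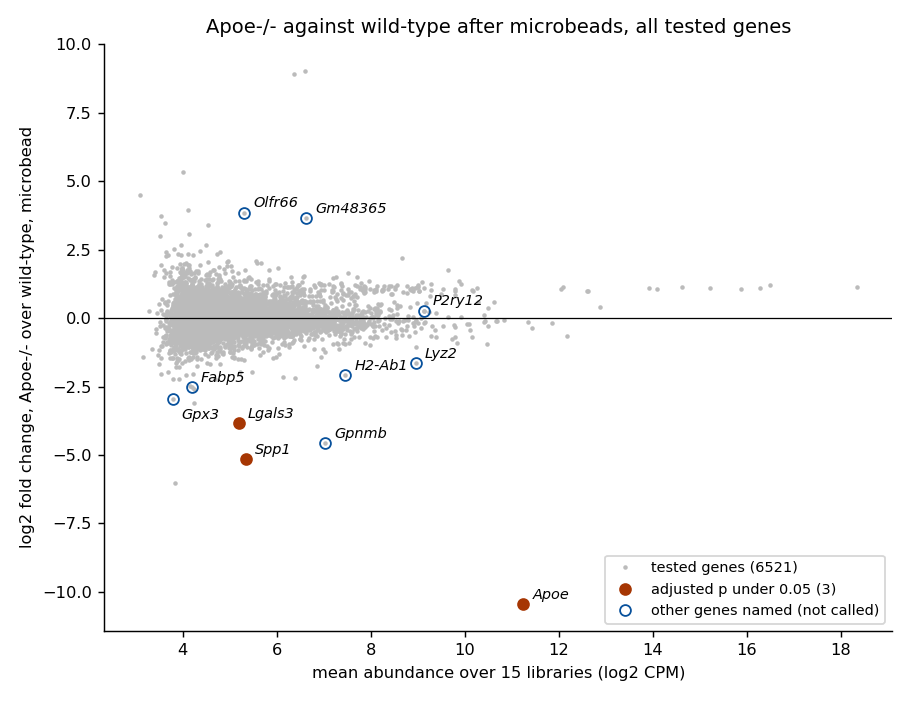
Each grey point is 1 of 6521 tested genes, with mean abundance over 15 libraries (log2 CPM) across and the microbead log2 fold change of Apoe-/- over wild type upward. Filled circles are the 3 genes called, all lower in Apoe-/-, and open circles other genes named in the text. The row of points at the far right near 1 is the satellite models.

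Markers of other cells were read from lists. Rod photoreceptor genes were above 0 in 23 of 23 tested members of 25, with a median of 1.57, and in the sham contrast they were below 0 in 22, with a median of -1.09. The microbead median was 1.04 without Apoe-/- library 4, over the 19 members then tested. With a filter on the 8 sham libraries alone, 10 members were left, of which 10 were above 0, with a median of 1.62. The counts at an unadjusted p were not repeated under that filter, so they include members that pass only through rod-rich microbead libraries. Their summed level was 144 to 826 CPM in wild-type and 257 to 3114 CPM in Apoe-/- microbead libraries, and 687 to 3306 and 191 to 2029 CPM in the sham groups. By mean log2 level the wild-type libraries stood at 4.60, 3.85 and 3.01 and the Apoe-/- ones at 4.58, 3.52, 5.58 and 6.03, so library 2 of the Apoe-/- group was low in rod RNA. Cngb1, a rod channel subunit, was at 2.45, and Rcvrn, recoverin, at 2.66. edgeR called 0 rod genes, with 8 higher (4.25% of all genes) and 0 lower at an unadjusted p under 0.05. None of the 25 rod markers was at 0 in all 7 libraries. Since these are bulk samples, more cells of a type and more RNA per cell cannot be told apart.

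Other immune cells left few reads. Border macrophage markers summed to 183 to 261 CPM in wild type and 186 to 356 CPM in Apoe-/-, over 13 genes of which 5 were tested. Mrc1, the mannose receptor, was 5.79, 8 and 5.34 CPM against 31.1, 10.9, 23.3 and 28 (log2 fold change 1.84), while Ms4a7 was at -1.08. Monocyte markers summed to 72.4 to 164 CPM and 62.2 to 141 CPM, with 3 of 12 tested. Neutrophil markers summed to 268 to 296 CPM and 321 to 393 CPM, with 2 of 14 tested and S100a9, Ly6g, Mmp9, Camp, Ngp and Elane at 0 in all 7 libraries. T, B and NK cell markers summed to 150 to 211 and 212 to 269 CPM, with Trac, Igkc, Nkg7 and Gzma at 0. The 10 microglial markers summed to 11272 to 14099 CPM in wild-type and 9769.8 to 14876 CPM in Apoe-/- libraries. The part of these cells in the results was not tested.

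In sham retinas Apoe was the 1 gene called lower (0.0153% of genes) and 0 were called higher (0%) by edgeR, with 371 higher (5.69%) and 195 lower (2.99%) at an unadjusted p under 0.05. DESeq2 and limma voom likewise called 0 higher and 1 lower. The difference between the microbead and sham contrasts, tested in the same model, gave 0 called genes (0%), with 126 higher (1.93%) and 95 lower (1.46%) at an unadjusted p under 0.05 and a smallest adjusted p of 1.00. DESeq2 and limma voom called 0 as well. Of 23 tested rod genes, 13 were higher and 0 lower in edgeR's test of the difference, at an unadjusted p under 0.05. The shares of all genes are 1.93% and 1.46%, as given above. Only 10 of the 23 pass a filter on sham libraries alone, and the difference was not computed under that filter. The 13 may thus include genes that were tested only through rod-rich microbead libraries. The part of rod RNA in the difference was not tested. Lgals3 was at -3.83 after microbeads and 1.33 after sham, with an unadjusted p of 0.00283 for the difference by edgeR. Its sham values were 7.14, 0, 3.48 and 5.22 CPM in Apoe-/-, and 1.52, 0, 1.2 and 4.3 in wild type. Each of them is at or below what 3 reads are worth in its library. By edgeR's test of the difference, Gpx3 (-2.96 and 0.91) had an unadjusted p of 0.00453, Pld3 (-1.44 and 0.00) of 0.00541 and Atp6v1a (-1.49 and 0.05) of 0.00877. Spp1 was at -5.15 and -4.57 (edgeR unadjusted p = 0.708 for the difference). The Apoe-/- sham libraries held 0 reads of Spp1. Lgals3, Gpx3 and Spp1 passed the filter only through their wild-type microbead level, so they had to be lower in Apoe-/- after microbeads. The unadjusted p of the difference carries that selection for these genes. None of these differences passed adjustment, so no gene was shown to differ by genotype in 1 condition alone.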

How the data were processed

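Bulk RNA of sorted retinal microglia was measured in 15 libraries, from wild-type (4 sham, 3 microbead) and Apoe-/- retinas (4 sham, 4 microbead). The authors deposited 1 table per library with estimated counts, TPM and effective lengths per transcript, in Salmon's columns per the file headers. Salmon 1.4.0, R 4.0.3, DESeq2 1.30.1 and the build mm10 are listed per the submitters' processing notes. Not given in the sources used here are the annotation release, library type and read filters. The authors' deposited effective length (a score in bases per the file headers) entered only the length offsets. The authors' deposited TPM served an alternative and a check.

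Transcripts were assigned to genes with GENCODE M21 (116023 of 116945; 0.217 to 0.354% of reads unassigned and left out). Counts were summed per gene, rounded, and tested by edgeR's quasi-likelihood F-test (version 4.0.16, run in R 4.3.3) after TMM scaling and filterByExpr, in 1 model of all 15 libraries in 4 groups. P-values are two-sided, adjusted by Benjamini-Hochberg over 6521 genes, threshold 0.05. Alternatives used limma 3.58.1 and DESeq2 1.42.0. List levels are means of log2 CPM with a prior count of 2. Library measures were compared by exact permutation over 35 arrangements. Reads carry no molecular identifiers, so the limit for a gene without reads and the interval of the summed Apoe reads cover counting error only. The SE and intervals of log2 fold changes come from the edgeR fit and include the spread between libraries.

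Whether the numbered retinas were from separate mice is not in the labels, so p-values reflect only the spread between these samples, which may be technical. Library pairs of a group differed by more than sampling noise (lowest chi-square of 2.93 per degree of freedom). Named genes were Apoe, the called genes, the 5 with the smallest p in each direction beyond them, up to 2 per list and direction, and a fixed set. Of 130 such genes, 61 are given. Some results are not reported here. Members and lists were chosen with earlier results of these data known. Of 6518 symbols tested, 5080 had a promoter in the RefSeq table.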

Additional observations from a re-analysis of the deposited data

Results flagged for a closer look

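In the group of 4 Apoe-/- microbead libraries, 94 measures were examined for a single library far from the other 3, by Dixon's test at its 95% critical value, and 11 were flagged. Chance alone flags about 1 measure in 20, and the measures share libraries.

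Library 2 was flagged most often. Its neurodegenerative list level was 6.862 (mean log2 CPM), with the others between 5.966 and 6.054. Its Pld3 level was 169.36 CPM (others 68.364 to 79.34), its Cst7 level 98.339 CPM (others 3.1114 to 10.358) and its Abca1 level 139.31 CPM (others 50.54 to 58.006). It was low in Ndufv3, at 2.7316 CPM (others 13.607 to 14.501), which is below what 3 reads are worth in that library (8.195 CPM). Library 2 was also low in the list for Muller glia and astrocytes, at 5.053 (others 5.895 to 5.994). That list level covers only the 2 tested members of 13.

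Library 4 was flagged in Gpx3 at 0 CPM (others 5.4633 to 6.2149). Each of these Gpx3 values was at or below what 3 reads are worth in its library (4.667 to 8.195 CPM). Library 4 also stood apart in Tnf at 60.672 CPM (others 6.2149 to 9.7193) and in the oligodendrocyte list at 5.02 (others 4.137 to 4.172). That list level covers only the 3 tested members of 9. Library 1 stood apart in the predicted model Gm48365 at 437.12 CPM (others 51.338 to 87.413) and in Lpl at 91.152 CPM (others 49.782 to 54.633). The causes were not tested.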

How the results depend on the processing

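For the microbead contrast the counts of genes called were 18 higher and 8 lower with DESeq2, 33 and 40 with no filter on low counts, 1 and 1 with satellite share as a covariate, and 2 and 184 on log2 TPM with limma (pseudocount 1). The median over all genes on log2 TPM was -0.73 and 91.15% of genes were below 0, so TPM values are read relative to that shift. The lower count was 1 with limma voom, under a filter of 10 reads in 7 libraries or more, with a robust prior, with transcript length offsets and, as alternatives added after the data were seen, with a filter on the 8 sham libraries and without wild-type microbead library 2 and Apoe-/- sham library 2 together. It was 3 with RLE, and 2 with only the 7 microbead libraries (Apoe and Spp1) or with rod level as a covariate (Apoe and the model Gm48113). Same-numbered samples did not all deviate together (correlations of 0.157, -0.01 and -0.068 in the microbead groups and 0.014, -0.056, 0.223 and 0.12 in the sham groups), and with the replicate block 1 gene was called lower. Leaving out each library in turn gave 1 to 7 lower and 0 higher each time. With no filter, the sham contrast had 20 higher and 21 lower and the difference between contrasts 33 and 12. They had 0 and 1, and 0 and 0, with RLE, DESeq2, limma voom, the stricter filter, the replicate block and each library left out, and were not computed under the other alternatives. Genes without overlap were 11 higher and 1618 lower on log2 TPM, and 313 to 633 higher and 352 to 583 lower with 1 library left out. Leaving out libraries gave a sham count of 1 lower each time, Apoe from -10.75 to -10.05, a satellite share difference of 16.75 to 23.13 points and a TMM size difference of -373500 to -218600.

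Apoe was called in each of these fits. Lgals3 and Spp1 were lost with limma voom (adjusted p = 0.257 and 0.268 by limma), the replicate block (0.118 and 0.0625), satellite share as a covariate (0.898 and 0.206), rod level as a covariate (0.329 and 0.158), the robust prior (0.15 and 0.262) and length offsets (0.0583 and 0.0626). Both were lost without wild-type microbead library 2 and Apoe-/- sham library 2 together (0.696 and 0.414), and Lgals3 with only the 7 microbead libraries (0.24). DESeq2 gave neither an adjusted p.

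On log2 TPM the list medians of homeostatic (-0.95), TGF-beta (-0.84), receptor (-0.47) and cholesterol synthesis genes (-0.57) were below 0, beside -0.73 for all genes. Some genes that were not called changed sign. On log2 TPM these were Ermp1 -0.25, Siglech -0.31, Ccl6 -0.36, Lpl -0.39, P2ry12 -0.85, Tmem119 -0.84, Sall1 -0.66, Lrp1 -0.99 and Tgfb1 -1.40. With satellite share as a covariate they were Lpl -0.36, Trem2 0.026, Plcg2 0.029, C5ar1 0.60, Tnf 2.53, Ier2 1.72, Cx3cr1 0.54, Sall1 -0.47 and C1qa 0.14. With rod level they were Trem2 0.023, Abca1 0.12, Abcg1 0.077, C1qa 0.05 and Tgfb1 -0.057. With no filter they were Tmem119 -0.036, Lrp1 -0.027 and Tgfb1 -0.071, with length offsets Lrp1 -0.14 and Tgfb1 -0.80, and with the replicate block Tgfb1 -0.12. Without wild-type microbead library 2 and Apoe-/- sham library 2 they were Tmem119 -0.071, Abca1 0.30, Abcg1 0.12 and Tgfb1 -0.13. Over fits without 1 library the ranges were Trem2 -0.134 to 0.03, Fcrls -0.422 to 0.117, Tmem119 -0.073 to 0.171, Sall1 -0.07 to 0.57, Abca1 -0.503 to 0.301, Abcg1 -0.927 to 0.124, Lrp1 -0.07 to 0.188, C1qa -0.202 to 0.002 and Tgfb1 -0.298 to 0.489. The causes were not tested.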
